A study of Mus musculus with 6 samples.

Results

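The genes described here are 40 mouse genes of DNA replication and S phase, the stretch of the cell cycle in which the genome is copied. They were taken by gene symbol from a list with no threshold on any measured value, although earlier results of these data were known when the list was drawn up, and all 40 were found among the 19309 genes of the deposited expression table. All 40 also passed the filter on low counts that left 15109 genes for testing. The question put to them was how their transcript levels differed between cheek skin made dry by a solvent and the opposite cheek of the same mice.

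The 6 libraries came from the cheek skin of 3 healthy C57BL/6 mice aged 6 to 8 weeks, the same strain and age in both groups, with no genetic change named in the labels although the title of the series names MMP9. In the AEW group (acetone, ether and water), the shaved right cheek was wiped for 30 s with a mixture of equal volumes of acetone and ether and then for 30 s with distilled water. In the vehicle group, the left cheek of the same mice was wiped with distilled water for 60 s. Wiping was done morning and evening, and tissue was taken on day 12. AEW and vehicle replicates of one number are the right and left cheek of one mouse, so treatment and side of the face cannot be told apart.

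Copying of the genome starts with licensing: the origin recognition complex, with Cdc6 and Cdt1, loads the ring of MCM2 to MCM7 proteins onto DNA. At the start of S phase, Cdc45 and the GINS complex join each ring to form the active helicase, and Mcm10 helps it to open. Primase and the polymerases then make the new strands, the clamp Pcna holds the polymerases on the DNA, and Fen1 and Lig1 trim and join the short pieces of the lagging strand. Transcription of most of these genes is driven by E2F factors late in G1, when the retinoblastoma protein family releases its hold on them. In skin, most dividing cells lie in the basal layer of the epidermis and, in growing follicles, in the hair matrix.

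Some of these genes hold, near their start, letters that E2F factors are known to read. Shown are 4 of them, in which the letters lie before the start of the gene, outside annotated exons. Such letters also lay before the start of Gins3, Mcm7, Orc1, Rfc3 and Uhrf1, which are not shown. The windows came from RefSeq on build GRCm38.p6 and ran from 250 bases before to 50 after each start. A window was found for 33 of the 40 genes. Each stretch is written 5′ to 3′ in the direction of the gene, and the capitals mark 1 of the 4 words searched, or its reverse complement, the words being TTTCCCGC, TTTCGCGC, TTTGCCGC and TTTGGCGC. The stretches lie at chr11:98907987-98908046 on the plus strand for Cdc6, chr8:75109330-75109389 on the plus strand for Mcm5, chr1:128359719-128359841 on the minus strand for Mcm6 and chrX:93632260-93632319 on the minus strand for Pola1.
Cdc6: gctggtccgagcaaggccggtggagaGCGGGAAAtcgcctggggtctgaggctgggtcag
Mcm5: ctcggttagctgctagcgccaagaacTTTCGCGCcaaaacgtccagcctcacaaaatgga
Mcm6: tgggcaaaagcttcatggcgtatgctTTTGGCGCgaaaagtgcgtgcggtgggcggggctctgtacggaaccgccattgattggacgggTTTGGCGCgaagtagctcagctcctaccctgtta
Pola1: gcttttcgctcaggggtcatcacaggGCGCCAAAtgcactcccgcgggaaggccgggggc
In GENCODE annotation of the same genome, the Cdc6 stretch lies in an intron of a longer Cdc6 transcript, and the other 3 stretches overlap no gene. The marked word begins 138 bases before the start of Cdc6, 153 before that of Mcm5 and 138 before that of Pola1. In Mcm6 the marked words begin at 110 and at 47 bases before its start. A match that overlaps a marked word was not put in capitals. Such a match, to the reverse complement of another searched word, begins inside the marked word of Mcm5 (GCGCCAAA) and inside the first of Mcm6 (GCGCGAAA).

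At least 1 of these 4 words was found in 13 of the 33 genes with a window (39.4%), against 704 of all 27025 genes with a window (2.6%). The same words shortened by their first letter, which take in every match of the longer ones, were found in 21 of the 33 genes (63.6%) and in 10.9% of all genes. The pair of words TTTGAA and TTCGAA, known as the cell cycle genes homology region of late cell cycle promoters, was found in 7 of the 33 (21.2%) and in 21.7% of all genes. In 23 mitosis genes with a window the order was the other way round: the 8-letter E2F words were in 1 gene and the homology region words in 19 (82.6%). The letters CCAAT were in 19 of the 33 genes (57.6%) and in 41.1% of all genes. The median log2 fold change between cheeks, given in full further on, was 0.88 for the 13 genes with an 8-letter E2F word and 0.82 for the 20 without. Split by the shortened words, it was 0.88 for the 21 genes with one (0.53 to 1.46) and 0.59 for the 12 without (0.21 to 1.84), so the ranges overlapped and the gap between the medians depended on the words used.

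The libraries were of similar depth, with 18449207 to 19506491 estimated read counts each, from single-end reads of 50 bases. Basal keratinocyte markers were abundant in every library, with Krt5 at 2382 CPM or more (a gene's share of the library's counts, scaled by the trimmed mean of M-values) and Krt14 at 2223 or more. Skeletal muscle markers were abundant too and were lower in every AEW library, as given below. The first AEW library stood apart from the other AEW libraries. The chi-square per degree of freedom between its counts and theirs was 68.67 and 57.19, against 19.65 between AEW 2 and AEW 3 and 19.07 to 26.46 among the vehicle libraries. In bulk tissue of this kind, more cells in S phase and more RNA per cell cannot be told apart.

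The replication and S phase genes lay higher in AEW than in vehicle skin as a set, by a median of 0.82 on the log2 scale (1.76-fold), with log2 fold changes from 0.21 for Orc6 to 1.84 for Mcm10. All 40 fold changes were above 0, where 51.6% of all tested genes were and where the median of all tested genes was 0.01. By edgeR's quasi-likelihood test at an adjusted p under 0.05, with Benjamini-Hochberg adjustment over all 15109 genes, 17 of the 40 rose, 0 fell and 23 were not called. Over all genes, 4.85% were called higher and 6.80% lower. At an unadjusted p under 0.05, 35 of the 40 were higher against 14.8% of all genes, and 0 were lower. DESeq2 called 30 of the 40 higher, the 17 included, against 8.56% of all genes, and 0 lower.

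These calls rested on how the mice entered the fit and on single libraries. With the mouse as a replicate block, edgeR called 1 of the 40 (Mcm10), against 1.99% of all genes, while the median log2 fold change was 0.80 and 31 genes were higher at an unadjusted p under 0.05. The other 16 had blocked adjusted p-values of 0.0526 to 0.122 by edgeR. Leaving out AEW 1 raised the edgeR count to 20, which included all 17, against 7.83% of all genes, and the median fell to 0.55. Leaving out AEW 2 or AEW 3 gave 5 and 8 calls, against 1.14% and 2.27% of all genes, and leaving out vehicle 2 gave 4, against 2.46%. Without vehicle 1 or vehicle 3 edgeR called 0 of the 40 at the adjusted threshold, against 0.216% and 0.150% of all genes, with 26 and 27 higher at an unadjusted p under 0.05. Without both cheeks of mouse 1, 13 were called, all of them among the 17, against 7.02% of all genes. Without both cheeks of mouse 2 or mouse 3 the edgeR count was 0, against 0.0922% and 0.00% of all genes, with 35 and 29 higher at an unadjusted p under 0.05. The shares of all genes given for these fits are at the adjusted threshold. No share of all genes is given at an unadjusted p for them, so the unadjusted counts have no background. In each of these fits all 40 fold changes stayed above 0.

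**Figure D1:**
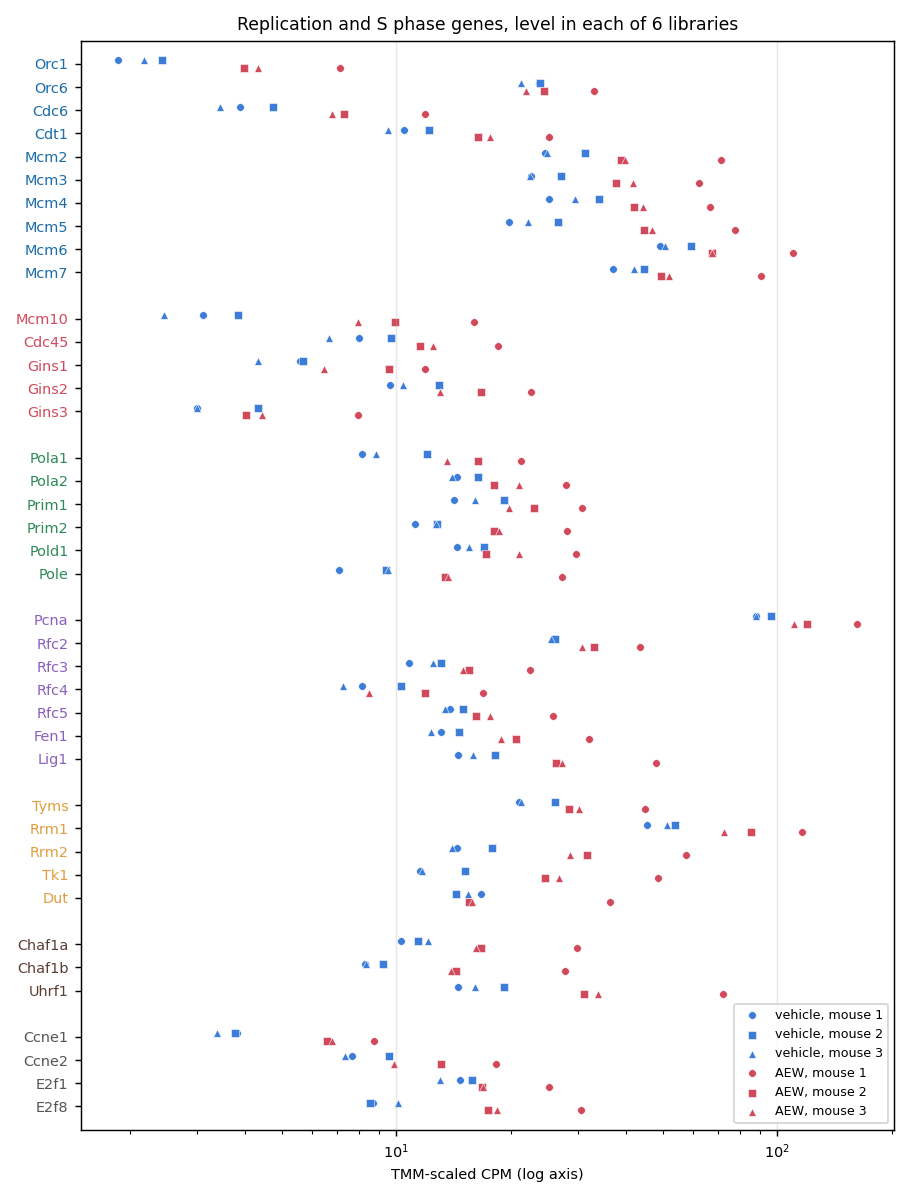
Level of each of the 40 genes in each library, as CPM scaled by the trimmed mean of M-values on a log axis, with blue for vehicle, red for AEW and the marker shape for the mouse; gene names are coloured by role. The red circle of AEW 1 is the rightmost point for all 40 genes, and Orc6, Gins3, Rfc4 and Dut are the genes whose groups overlap.

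In 36 of the 40, every AEW library lay above every vehicle library, which held for 17.4% of all tested genes. The exceptions were Orc6, Gins3, Rfc4 and Dut. The gap could be narrow: the highest vehicle and the lowest AEW library were at 9.56 and 9.87 CPM for Ccne2 and at 19.2 and 19.7 for Prim1. The first AEW library was the highest of the 6 for all 40 genes, against 26.5% of all tested genes.

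Of the 10 licensing genes, the largest role group, 6 rose (Orc1, Cdc6, Cdt1, Mcm3, Mcm4 and Mcm5), against 4.85% of all genes. The group median log2 fold change was 0.89, or 0.60 without AEW 1. With the replicate block none of the 6 was called by edgeR, at adjusted p-values from 0.0598 (Mcm5) to 0.122 (Mcm4). Orc1, the largest subunit of the origin recognition complex and the one that comes and goes with the cell cycle, was at 1.86, 2.43 and 2.17 CPM in vehicle 1, 2 and 3 and at 7.11, 3.99 and 4.34 in AEW 1, 2 and 3. Its lowest AEW value was above its highest vehicle value, and its log2 fold change was 1.26 (95% interval 0.59 to 1.93, edgeR adjusted p = 0.0368). Orc6, the small subunit of the same complex, was at 23.7, 23.8 and 21.2 CPM in vehicle and 33.1, 24.4 and 21.9 in AEW. For Orc6, AEW 1 was well above the vehicle libraries, AEW 2 was just above the highest of them and AEW 3 lay within their range, and its log2 fold change of 0.21 was not called (interval -0.17 to 0.59, edgeR adjusted p = 0.422).

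Both loading factors rose. Cdc6, the ATPase that helps to load the MCM ring, was at 3.88, 4.75 and 3.45 CPM in vehicle and 11.9, 7.30 and 6.77 in AEW, a log2 fold change of 1.10 (SE 0.27, edgeR adjusted p = 0.0435). Cdt1, its partner in loading, was at 10.5, 12.2 and 9.51 CPM in vehicle and 25.1, 16.4 and 17.6 in AEW, a log2 fold change of 0.88 (SE 0.19, edgeR adjusted p = 0.0341). For both genes the groups did not overlap, and AEW 2 and AEW 3 lay between the vehicle libraries and AEW 1.

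The 6 subunits of the MCM ring had a median log2 fold change of 0.84, and 3 of them (Mcm3, Mcm4 and Mcm5) rose. Mcm5 changed most, from 19.8, 26.5 and 22.2 CPM in vehicle to 77.3, 44.8 and 47.0 in AEW, a log2 fold change of 1.30 (interval 0.76 to 1.85, edgeR adjusted p = 0.0204). Mcm3 had a log2 fold change of 0.98 (SE 0.20) and Mcm4 of 0.78 (SE 0.20). Mcm2 at 0.90, Mcm6 at 0.62 and Mcm7 at 0.64 were not called, at edgeR adjusted p-values of 0.0615, 0.0944 and 0.123. The groups did not overlap for any of the 6 subunits. Per transcript length, as deposited TPM (each transcript's share of a library's transcripts), the 6 subunits lay between 9.27 and 26.1 in vehicle 1, 12.8 and 32.2 in vehicle 2, and 10.6 and 28.6 in vehicle 3. They lay between 32.4 and 67.2 in AEW 1, 18.5 and 36.1 in AEW 2, and 20.6 and 39.1 in AEW 3, so the lowest subunit of AEW 1 was above the highest of each vehicle library.

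Of the 5 genes of helicase activation, Mcm10 rose and the other 4 were not called, with a group median log2 fold change of 0.81, or 0.56 without AEW 1. Mcm10, which binds the MCM ring as it is activated, was at 3.11, 3.84 and 2.45 CPM in vehicle and 16, 9.92 and 7.91 in AEW. Every AEW value was above every vehicle value, and its log2 fold change of 1.84 (3.59-fold, interval 1.12 to 2.57, edgeR adjusted p = 0.0178) was the largest of the 40 genes. It stayed called with the replicate block (edgeR adjusted p = 0.0323). Cdc45, the helicase partner of the ring, had a log2 fold change of 0.81, and the GINS subunits Gins1, Gins2 and Gins3 had 0.84, 0.67 and 0.67. Their edgeR adjusted p-values ran from 0.0643 for Cdc45 to 0.201 for Gins3. Gins3 was at 3.00, 4.32 and 3.00 CPM in vehicle and 7.95, 4.04 and 4.45 in AEW, so that AEW 2 lay inside the range of the vehicle libraries.

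Among the 6 genes of primase and the polymerases, 1 rose, and the group median log2 fold change was 0.70, or 0.47 without AEW 1. Prim2, the large subunit of primase, was at 11.2, 12.8 and 12.7 CPM in vehicle and 28.0, 18 and 18.6 in AEW, a log2 fold change of 0.81 (SE 0.19, edgeR adjusted p = 0.0400). With the block its edgeR adjusted p was 0.0972. Prim1, the catalytic subunit of primase, had a log2 fold change of 0.57 and was not called (edgeR adjusted p = 0.0980). Pola1 and Pola2, subunits of the polymerase that extends the primers, had 0.82 and 0.58 at edgeR adjusted p-values of 0.0546 and 0.0736. Pole, the catalytic subunit of the leading-strand polymerase, had the widest interval of the group. It was at 7.05, 9.40 and 9.51 CPM in vehicle and 27.3, 13.4 and 13.7 in AEW, a log2 fold change of 1.07 (interval 0.35 to 1.79, edgeR adjusted p = 0.0650). Pold1, the catalytic subunit of the lagging-strand polymerase, had 0.53 (edgeR adjusted p = 0.126).

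The clamp, its loader and the joining enzymes had the smallest group median, 0.54 on the log2 scale, or 0.33 without AEW 1, and 2 of the 7 rose. Pcna, the sliding clamp, was at 87.8, 96.1 and 87.7 CPM in vehicle and 162.4, 119.8 and 110.9 in AEW. The AEW libraries all lay above the vehicle libraries, but its log2 fold change of 0.53 was not called (edgeR adjusted p = 0.0639). Pcna had the highest vehicle level per transcript length of the 40 genes, with a mean of 120.4 TPM, while Orc1 had the lowest with 0.93 and the median of the 40 was 10.1. None of the 4 loader subunits Rfc2, Rfc3, Rfc4 and Rfc5 was called by edgeR (0 of 4, with 3 at an unadjusted p under 0.05 and 1 called by DESeq2), and their log2 fold changes lay between 0.47 and 0.54.

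The joining enzymes differed from the loader in their calls, although the difference between these groups was not tested. Fen1, the flap endonuclease that trims lagging-strand pieces, was at 13.1, 14.6 and 12.3 CPM in vehicle and 32.1, 20.6 and 18.8 in AEW, a log2 fold change of 0.84 (SE 0.21, edgeR adjusted p = 0.0486). Lig1, the ligase that seals them, was at 14.5, 18.2 and 15.9 CPM in vehicle and 48.1, 26.3 and 27.2 in AEW, a log2 fold change of 1.06 (SE 0.25, edgeR adjusted p = 0.0391). Without AEW 1 the fold change of Fen1 was 0.55 and that of Lig1 0.72 on the log2 scale, and both were still called. Neither was called with the block, at edgeR adjusted p-values of 0.0833 and 0.0928.

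Of the 5 genes of nucleotide supply, 3 rose, with a group median log2 fold change of 0.86, or 0.64 without AEW 1. Ribonucleotide reductase makes deoxynucleotides from ribonucleotides, and both of its S phase subunits rose. Rrm1, the large subunit, was at 45.4, 53.9 and 51.3 CPM in vehicle and 116.3, 85.3 and 72.4 in AEW, a log2 fold change of 0.86 (SE 0.18, edgeR adjusted p = 0.0301). Rrm2, the small subunit, was at 14.4, 17.8 and 14.0 CPM in vehicle and 57.5, 31.6 and 28.6 in AEW, a log2 fold change of 1.35 (SE 0.28, edgeR adjusted p = 0.0293). Tk1, the thymidine kinase of dividing cells, was at 11.5, 15.1 and 11.7 CPM in vehicle and 48.5, 24.6 and 26.7 in AEW, a log2 fold change of 1.38 (SE 0.28, edgeR adjusted p = 0.0281). With the block their edgeR adjusted p-values were 0.0755, 0.0598 and 0.0702, so none of the 3 was called.

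Tyms and Dut were not called. Tyms, the thymidylate synthase, had a log2 fold change of 0.60 (edgeR adjusted p = 0.0884) and groups that did not overlap. Dut, which breaks down dUTP and so keeps uracil out of DNA, was at 16.7, 14.3 and 15.4 CPM in vehicle and 36.3, 15.5 and 15.8 in AEW. Its log2 fold change of 0.54 (interval -0.24 to 1.33) rested on AEW 1: without that library it was 0.00 (edgeR adjusted p = 0.985).

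The 3 genes that copy chromatin had the highest group median, 1.12 on the log2 scale, or 0.70 without AEW 1, and 2 of them rose. Uhrf1, which brings the maintenance DNA methyltransferase to newly copied DNA, was at 14.5, 19.2 and 16.1 CPM in vehicle and 72.1, 31.0 and 33.8 in AEW, a log2 fold change of 1.46 (interval 0.68 to 2.24, edgeR adjusted p = 0.0372). Chaf1a and Chaf1b are the large and middle subunits of the complex that puts histones onto new DNA. Chaf1b had a log2 fold change of 1.12 (SE 0.28, edgeR adjusted p = 0.0477), and Chaf1a had 0.89 and was not called (edgeR adjusted p = 0.0604). Without AEW 1 the log2 fold changes of Uhrf1 and Chaf1b were 0.95 and 0.70, and both were still called. With the block Uhrf1 and Chaf1b were at edgeR adjusted p-values of 0.0890 and 0.0928.

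Of the 4 genes that control entry into S phase, 2 rose, with a group median log2 fold change of 0.88, or 0.67 without AEW 1. Ccne1, a cyclin that drives entry, was at 3.82, 3.78 and 3.39 CPM in vehicle and 8.75, 6.56 and 6.77 in AEW, a log2 fold change of 1.00 (SE 0.19, edgeR adjusted p = 0.0224). E2f8, a repressor of the E2F family that is itself made in S phase, was at 8.69, 8.53 and 10.1 CPM in vehicle and 30.6, 17.4 and 18.4 in AEW, a log2 fold change of 1.28 (SE 0.24, edgeR adjusted p = 0.0223). Their blocked edgeR adjusted p-values were 0.0557 and 0.0526. The second E cyclin, Ccne2, had 0.75 (edgeR adjusted p = 0.0899). The activator E2f1 had 0.44 (SE 0.19, edgeR adjusted p = 0.163), and its highest vehicle library at 15.8 CPM lay just under its AEW 2 and AEW 3 libraries at 16.8 and 16.9.

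**Figure D2:**
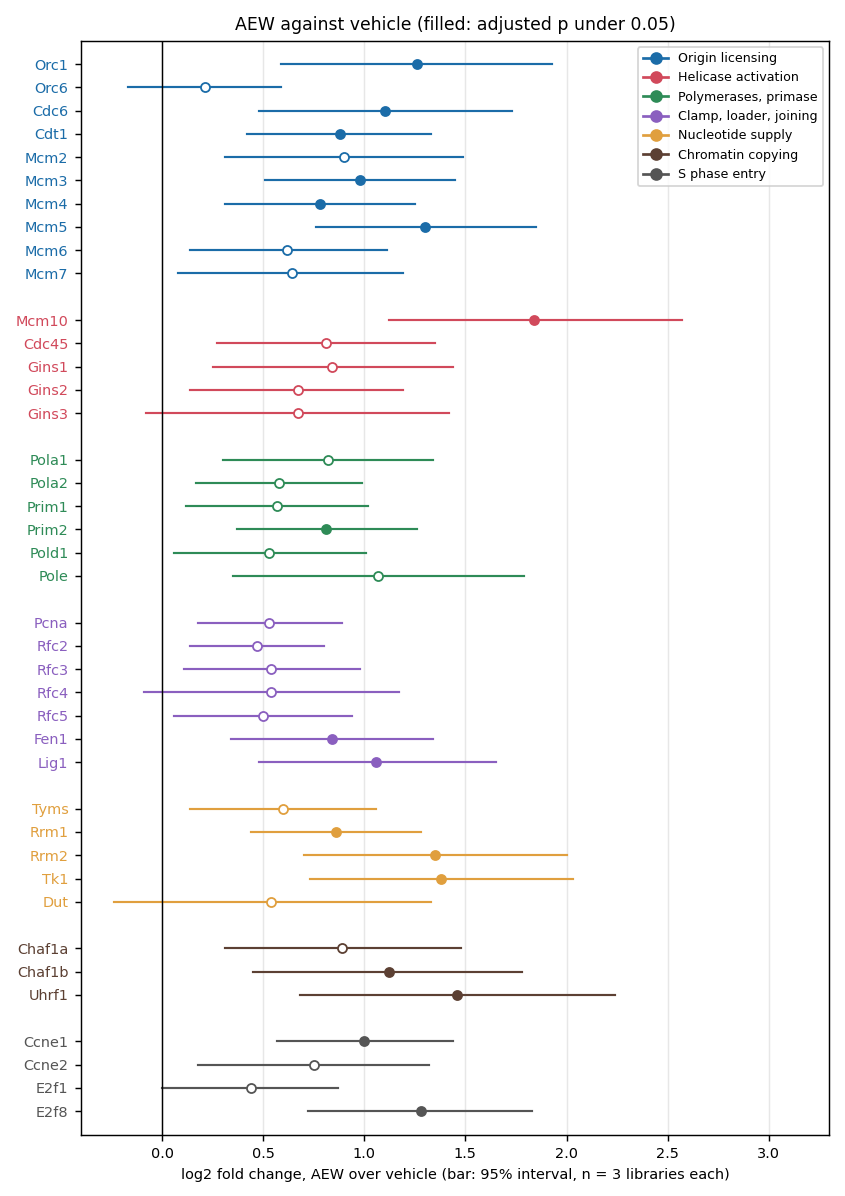
Log2 fold change of AEW over vehicle for each gene by edgeR, with the 95% interval as a bar, filled points for an adjusted p under 0.05, and colour by role. All 40 points lie to the right of 0, from 0.21 for Orc6 to 1.84 for Mcm10, and 17 are filled.

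Over the 40 genes, Spearman's rho between the vehicle mean TPM and the log2 fold change was -0.49, a description over genes that share the same 6 libraries and in which the vehicle values enter both measures. The coefficient of variation had a median over the 40 genes of 12.1% in vehicle and 29.8% in AEW, against 9.7% and 12.7% over all tested genes.

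Within mice, the right cheek was above the left for 39 of the 40 genes in all 3 animals; Gins3 in mouse 2 was the exception, with a log2 ratio of -0.10. For mice 1, 2 and 3 the median log2 ratios of AEW to vehicle were 1.30, 0.44 and 0.57, and those of all tested genes were -0.01, -0.01 and 0.00. All 40 genes had their largest ratio in mouse 1. In 32 the smallest was in mouse 2 and in 8 in mouse 3. Vehicle 2 was the highest vehicle library for 35 of the genes. The shares of all tested genes with these orders of mice and libraries are not given, so the orders describe the 40 genes only. AEW 1 was above the mean of AEW 2 and AEW 3 by a median ratio of 1.58, while AEW 2 and AEW 3 had a median ratio of 0.98 to each other.

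Counting error is small beside these differences for most genes. Exact binomial 95% intervals of the ratio, which cover counting error only, lay above 1 for all 40 genes in mouse 1, for 29 in mouse 2 and for 37 in mouse 3. No such share is given for all tested genes, so these counts cannot be set against a background. The Mcm10 ratios of mice 1, 2 and 3 were 5.13, 2.59 and 3.23, with intervals of 3.86 to 6.92, 1.96 to 3.45 and 2.30 to 4.63. Those of Uhrf1 were 4.96, 1.62 and 2.10, with intervals of 4.35 to 5.68, 1.41 to 1.85 and 1.82 to 2.42. For Dut the ratio was 2.17 in mouse 1 (1.90 to 2.49), and the intervals in mouse 2 (0.914 to 1.28) and mouse 3 (0.867 to 1.21) held 1.

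**Figure D3:**
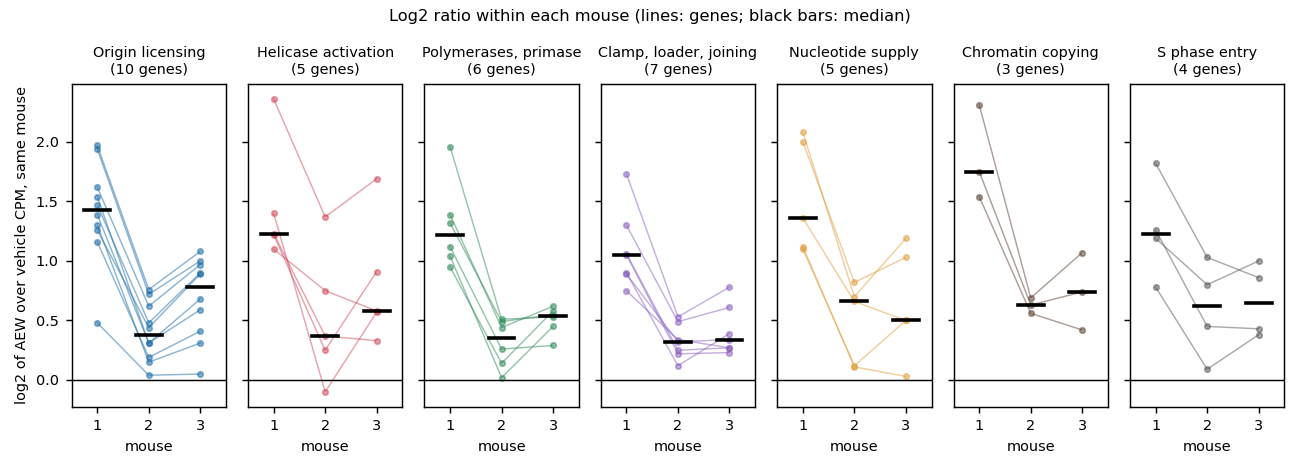
Log2 ratio of AEW to vehicle CPM within each of the 3 mice, 1 line per gene and 1 panel per role, with a black bar at the median. Every gene is highest in mouse 1, and 1 point, Gins3 in mouse 2 at -0.10, lies under 0.

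Summed over the 40 genes, the level was 667.7, 787.1 and 690.0 CPM in vehicle 1, 2 and 3 and 1665, 1035 and 1013 in AEW 1, 2 and 3, that is 2.49, 1.31 and 1.47 times the level of the opposite cheek. The levels of other cells' markers moved as follows, and their part in the result was not tested. Hair matrix and shaft markers (9 of 10 measured, none at 0 in any library) summed to 268.8, 259.8 and 294.8 CPM in vehicle and to 1819, 20.9 and 470.5 in AEW, so AEW 1 was the highest library for these markers too. Shh, made by the matrix of growing follicles, was at 0.382, 0.324 and 1.17 CPM in vehicle and 25.7, 0.473 and 2.07 in AEW. In mouse 2 the summed hair markers were lower in AEW than in vehicle, while the summed replication genes were higher, 1035 against 787.1 CPM. Keratins carried most of that fall, such as Krt71, at 109.3 CPM in vehicle 2 and 5.3 in AEW 2. Hoxc13 and Msx2 were lower too, from 7.08 to 4.04 and from 4.7 to 2.84 CPM. Lef1 and Shh were higher in AEW 2, from 2.65 to 3.26 and from 0.324 to 0.473 CPM.

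Basal keratinocyte markers (8 of 8 measured, none at 0) summed to 7106, 11296 and 9316 CPM in vehicle and 11511, 13173 and 12124 in AEW. The 8 did not move alike: log2 fold changes ran from -0.76 for Krt15, at 1540, 2394 and 2198 CPM in vehicle and 1222, 1032 and 1378 in AEW, through -0.10 for Col17a1 and 0.43 for Krt5 to 0.97 for Krt14 and 1.37 for Cdh3. Per 100 CPM of these markers, the replication genes were at 9.40, 6.97 and 7.41 CPM in vehicle and 14.5, 7.86 and 8.36 in AEW. On this scale the groups overlapped, although the right cheek was above the left in each mouse. Skeletal muscle markers summed to 37253, 31160 and 46220 CPM in vehicle and 13290, 14178 and 19032 in AEW, with no overlap of the groups. Taking the muscle markers out of the table before scaling left 15 of the 40 replication genes called higher, against 708 of all 15099 genes tested. Their median log2 fold change stayed at 0.82. That fit altered the scaling and the genes tested, not the make-up of the tissue, so the part of muscle in the result was not tested. Macrophage markers, at 871.4, 482.3 and 392.2 CPM in vehicle and 437.1, 1106 and 839.6 in AEW, were highest in AEW 2, not in AEW 1.

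Suprabasal keratinocyte markers summed to 8988, 11700 and 10202 CPM in vehicle and 11116, 20989 and 17439 in AEW. This sum was higher on the right in each mouse and highest in AEW 2, but its parts did not move alike. From vehicle 1 to AEW 1, Krt1 rose from 1093 to 3673 CPM and Krt10 from 3097 to 3267. Krtdap, Dsg1a, Dsc1 and Sbsn fell between these libraries, and the median log2 ratio of the list there was -0.07. The other animals had every one of these markers higher on the right. Fibroblast markers summed to 8869, 7172 and 6706 CPM in vehicle and 12264, 8244 and 7025 in AEW. Their sum was highest in AEW 1, where Col1a1 was at 3720 CPM against 1147 and 1160 in AEW 2 and AEW 3. AEW 1 was the highest library for 4 of the 6 markers, but not for Dcn and Lum. Dcn was at 4037, 2765 and 2975 CPM in vehicle and 1818, 2769 and 2415 in AEW, lowest in AEW 1. Lum was at 524.7, 368.9 and 337.8 CPM in vehicle and 462.0, 626.2 and 386.7 in AEW. Endothelial markers summed to 336.3, 285.0 and 386.9 CPM in vehicle and 205.9, 250.9 and 241.1 in AEW, lower in every AEW library. Sebocyte markers summed to 8471, 6758 and 9272 CPM in vehicle and 5990, 5988 and 6359 in AEW. This sum was mostly Scd1, at 8045, 6370 and 8967 CPM in vehicle and 5504, 4996 and 5494 in AEW. Of the 5 sebocyte markers tested, 3 had a log2 fold change above 0, with a range of -0.55 to 1.18 and a median of 0.55. T cell markers summed to 38.4, 38.9 and 36.7 CPM in vehicle and 27.1, 30.3 and 33.6 in AEW. Cd3g was the largest part of that sum, at 21.0, 20.6 and 20.9 CPM in vehicle and 12.5, 10.6 and 14.5 in AEW. Of the 6 T cell markers tested, 3 had a log2 fold change above 0, with a range of -0.76 to 0.83. B cell markers stayed under 2 CPM in each library.

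**Figure D4:**
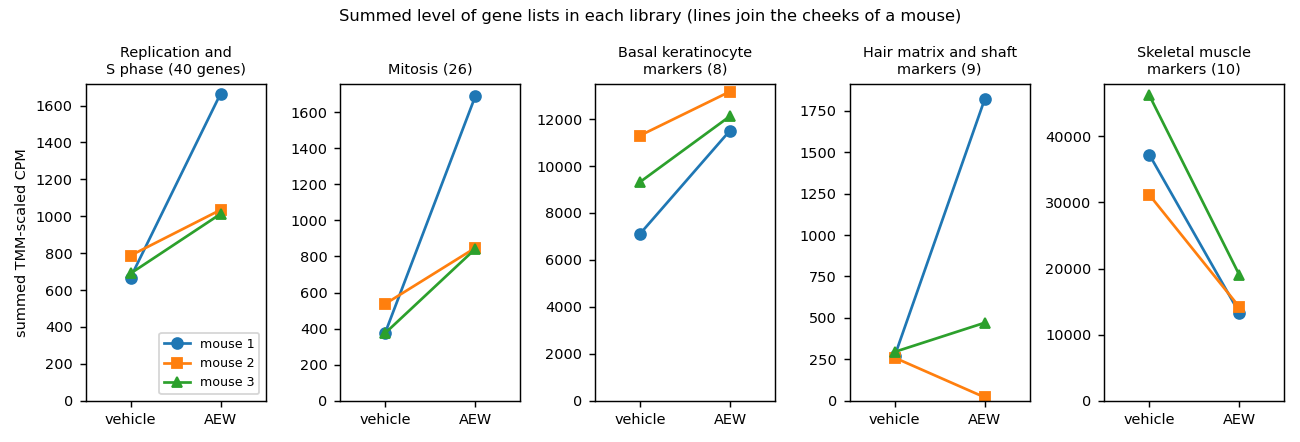
Summed CPM of 5 gene lists in each library, with a line joining the left (vehicle) and right (AEW) cheek of each mouse and each axis starting at 0. The replication genes are higher in AEW in all 3 mice, whereas hair matrix and shaft markers run from 20.9 in AEW 2 to 1819 in AEW 1.

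The 40 genes were next set beside other genes of the same processes, in 6 lists of 124 genes. Over these lists, 43 genes rose and 3 fell by edgeR. With the replicate block, 7 were called higher and 2 lower. Leaving out AEW 1 gave 47 called higher, and leaving out AEW 2, AEW 3 or vehicle 2 gave 15, 24 and 13. Leaving out vehicle 1 or vehicle 3 gave 0 by edgeR at the adjusted threshold, with 64 and 69 higher at an unadjusted p under 0.05.

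Among 31 other parts of the replication machinery, 6 rose and 0 fell, with a median log2 fold change of 0.36. Those with the smallest p were Clspn, a checkpoint mediator at the fork (1.55), Dbf4, the activating subunit of the Cdc7 kinase (1.36), Ticrr, which helps Cdc45 onto origins (1.63), and Mcmbp, an MCM binding protein (0.38). None of the 31 was called with the block (0 by edgeR, with these 4 at adjusted p-values of 0.0702, 0.0660, 0.0762 and 0.0934). Among 16 other genes of nucleotide supply, 2 rose, 1 fell and 13 were not called, with a median of 0.42. Cad, of pyrimidine synthesis, rose by 0.79 on the log2 scale. Rrm2b, the reductase subunit used outside S phase, fell by 0.54 on the log2 scale. The opposite directions of Rrm2 and Rrm2b were seen in each mouse, with Rrm2b at 22.1, 22.6 and 27.0 CPM in vehicle and 16.6, 15.3 and 17.4 in AEW. With the block neither Cad nor Rrm2b was called, at edgeR adjusted p-values of 0.0752 and 0.0568.

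Of 24 other genes of S phase entry, 6 rose and 2 fell, with a median of 0.38. Tfdp1, the partner with which E2F factors bind DNA, rose by 0.64 on the log2 scale, and Skp2, which marks cell cycle inhibitors for destruction, rose by 1.19. The 2 that fell were E2f6, a repressor of the E2F family, and Cdkn1c, an inhibitor of cyclin-dependent kinases. E2f6 was at 36.4, 31.5 and 40.5 CPM in vehicle and 24.0, 23.5 and 24.9 in AEW. Cdkn1c was at 23.7, 19.6 and 25.7 CPM in vehicle and 14.7, 10.8 and 14.0 in AEW. Both groups of values were apart, with log2 fold changes of -0.58 and -0.81, and both genes were still called with the block, at edgeR adjusted p-values of 0.0453 and 0.0299. Tfdp1 and Skp2 were not, at edgeR adjusted p-values of 0.0503 and 0.0533.

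In 11 other genes of chromatin copying, 4 rose and 0 fell, with a median of 0.74. Asf1b, which hands histones to the assembly complex of Chaf1a and Chaf1b, had a log2 fold change of 1.31 and was also called with the block (edgeR adjusted p = 0.0354). Hells, a chromatin remodeler, had 1.02, Dnmt1, the maintenance methyltransferase, had 0.74 and Atad2 had 0.86. These 3 were not called with the block, at edgeR adjusted p-values of 0.0779, 0.0782 and 0.106. In 16 genes of the fork checkpoint and repair, 4 rose and 0 fell, with a median of 0.92. Among them were the nuclease Exo1 (1.79) and the Fanconi gene Fancd2 (1.07). With the block these had edgeR adjusted p-values of 0.0831 and 0.1.

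Mitosis genes had the highest median of the 6 lists. Of 26, 21 rose and 0 fell, with a median log2 fold change of 1.40, or 0.92 without AEW 1. With the block 6 of the 26 were called. The edgeR count was 24 without AEW 1, 8 without AEW 2, 13 without AEW 3 and 9 without vehicle 2. It was 0 without vehicle 1 or vehicle 3, with 25 at an unadjusted p under 0.05 in each case. The kinase Plk1 was at 7.27, 8.86 and 7.06 CPM in vehicle and 41.8, 19.3 and 22.6 in AEW, a log2 fold change of 1.85 (SE 0.30, edgeR adjusted p = 0.0170, and 0.0442 with the block). The mitotic cyclin Ccnb1 had a log2 fold change of 1.52, the anaphase activator Cdc20 had 1.49 and the spindle checkpoint kinase Ttk had 0.86. Cdc20 was not called with the block (edgeR adjusted p = 0.0532).

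Per 100 CPM of the 40 replication genes, mitosis genes were at 56.5, 68.2 and 54.4 CPM in vehicle and at 101.4, 81.9 and 83.1 in AEW. Every AEW library lay above every vehicle library on this measure. No p-value is given for this score, because both lists were chosen with earlier results known, and AEW 1 was again the highest of the 6.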

How the data were processed

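RNA of cheek skin, selected for poly(A), was sequenced as single-end reads on a DNBSeq instrument, per the labels' protocols. HISAT and build GRCm39 are named in the submitters' processing notes. The counting tool and any use of strand were not stated, and reads of a gene that overlaps another, on either strand, cannot be assigned to 1 of them with certainty. The authors deposited 1 table with an estimated count and a TPM value (each transcript's share of the library's transcripts) for each gene and library; 53.9 to 57.2% of genes had counts that were not whole. Counts were fractional in all 6 libraries for 10 of the 40 genes and whole in all 6 for only 4. Reads shared with other genes may therefore have been split.

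Estimated counts were rounded and tested with edgeR 4.0.16 (R 4.3.3; glmQLFit and glmQLFTest, TMM scaling, filterByExpr at a minimum count of 10, group only), with adjustment over 15109 genes and a threshold of 0.05. The filter kept at least 99.94% of counts. Levels are TMM-scaled CPM, and intervals are 95%. The procedure was tested on simulated data, drawn as independent libraries with no pairing of cheeks and no outlying library. The simulation therefore does not bear on those features of the data. Depth was 18449207 to 19506491 counts a library.

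The labels give the same number to both cheeks of a mouse, so the numbers pair the libraries. The correlation of their deviations from the mean of each group was -0.244, -0.165 and -0.246 for the cheeks of 1 mouse and 0.0496 to 0.181 for cheeks of different mice. The labels do not say more of how replicates were prepared, and p-values measure the spread between these 3 mice.

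The fit was repeated in 14 other ways: with the replicate block, DESeq2 1.42.0, upper quartile and relative log expression scaling, no skeletal muscle genes, no filter, limma 3.58.1 on log2(TPM + 1) and on log2(TPM + 0.1), and each library left out. A further 3, each mouse left out, were added after the data were seen. The 40 genes, the lists and the tests were chosen with earlier results of these data known. All 40 genes could be named, and of each further list the 4 genes with the smallest p (not all are printed). Promoter windows of 300 bases were searched for the stated words on both strands.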

Additional observations from a re-analysis of the deposited data

How the results depend on the processing

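Of the 40 genes, 17 were called higher by edgeR. That count was 1 with the replicate block, 30 by DESeq2, and 10 and 11 by limma on log2(TPM + 1) and log2(TPM + 0.1), and it ran from 0 to 20 when single libraries or mice were left out. It was 14 to 17 under the other scalings and filters. No gene was called lower and no fold change turned negative in any of the 17 alternatives. The median log2 fold change was 0.77 to 0.85 with all libraries and 0.50 to 1.01 with a library or mouse left out. Over all tested genes, 733 were called higher, against 300 with the replicate block, 1351 by DESeq2, and 667 and 702 by limma. That number was 612 to 750 under the other scalings and filters, and 0 to 1197 with a library or mouse left out. The 1027 called lower became 588 with the replicate block, 1500 by DESeq2, and 666 and 666 by limma. The count of genes called lower was 952 to 1297 under the other scalings and filters, and 0 to 1041 with a library or mouse left out. Leave-out fits test 2 libraries against 3, or 2 against 2. With the replicate block 16 of the 17 genes lost their call and no uncalled gene gained one. As for depth, the counting interval of the ratio was above 1 for 40, 29 and 37 of the 40 genes in mice 1, 2 and 3, with no share over all tested genes to set beside these counts.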
